A study of Mus musculus with 33 samples.

Results

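Expression of 43 activity-regulated and immediate early genes was followed in the CA1 subregion of the mouse hippocampus, out of 38355 genes listed in the count files. The members were named as a fixed list, not picked by their values here, though earlier results of these data were known. They were classed from general knowledge as 25 rapid genes, 14 delayed genes and 4 genes placed in neither class. All 43 passed the filter on low counts in the aged mice. In the young mice 42 had a single locus, of which 40 passed the filter on low values. Atf3 and Maff were under it, and Inhba was split over 2 loci.

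When a neuron fires, calcium entry and kinase signalling act on transcription factors that are already present, and these switch on a first set of genes without new protein synthesis. This rapid set includes the AP-1 subunits Fos, Fosb, Jun and Junb, the zinc-finger factors Egr1 to Egr4, the neuron-specific factor Npas4 and Arc, a protein that promotes removal of AMPA receptors from synapses. A delayed set follows, in part under control of the first, and it is rich in proteins that act at synapses or that switch signalling off, such as Homer1, Nptx2, Dusp4, Dusp5 and Dusp6. In CA1 these genes are widely used as a read-out of recent neuronal activity, and their induction by learning fades within hours.

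CA1 was dissected from individual mice a day after the probe trial of a water maze, and not in the first hours after training. The aged mice, 8 to 10 months old, were of a transgenic line in which the neuronal Thy1 promoter drives mutant human APP on a C57B/6 background, or were WT mice. APP mice received JQ1, an inhibitor of the acetyl-lysine binding bromodomains of BET proteins, at 50 mg/kg i.p. for 10 days (APP JQ1, n = 6) or 10% DMSO (APP vehicle, n = 6). Aged WT mice received vehicle (WT vehicle, n = 4); their strain label names the APP line and they were taken as WT from their titles. Young C57B/6JRj mice, 3 months old, received JQ1 at 50 mg/kg or vehicle for 13 days (n = 8 each). By the study's methods the aged mice of the transgenic line were females and the young mice males. Every group had been injected and trained.

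The aged libraries held 14605459 to 25339482 reads counted in genes, so that 3 reads were worth 0.118 to 0.205 CPM (reads scaled to library size). The young mice have FPKM values only (fragments scaled by transcript length and library size), and their depth is unknown. The library labelled APP JQ1 replicate 4 went against its label. Thy1, whose promoter drives the transgene, stood at 820 CPM in it, against 841 to 1070 CPM in WT vehicle and 1618 to 2342 CPM in the other 11 APP libraries. Cst7, a plaque-associated microglial gene, was at 0 CPM there, against 0 to 0.245 CPM in WT vehicle and 13.7 to 55.6 CPM in the other APP libraries, and App, Trem2 and Gfap stood below every other APP library in the same way. Most counts, class medians and members described singly are therefore given with and without the library labelled APP JQ1 replicate 4 where it belongs to a group compared. Values in such comparisons given once include it. APP vehicle replicate 1 was the highest of its group by a wide margin in 14 of the members, and WT vehicle replicate 4 held 3065 CPM of the choroid plexus gene Ttr and the lowest Fos. The 5 CA1 pyramidal markers were present throughout, at summed levels of 869 to 1422 CPM, against 44.9 to 196 CPM for 4 dentate granule markers. Because tissue was sequenced in bulk, fewer cells of a type and less RNA per cell cannot be told apart.

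The proximal promoters of 7 members are printed because they carry, or lack, the short elements through which, as is known for this class, calcium, cAMP and serum response signalling act. They are the 250 bases before the RefSeq transcription start (GRCm38.p6), read 5′ to 3′ on the strand of the gene, and 32 of the 43 members matched an entry. Fos lies at chr12:85473640-85473889 (plus strand), Npas4 at chr19:4989972-4990221 (minus), Nr4a1 at chr15:101266596-101266845 (plus), Egr4 at chr6:85513590-85513839 (minus), Atf3 at chr1:191183334-191183583 (minus), Dusp5 at chr19:53528895-53529144 (plus) and Ier5l at chr2:30474200-30474449 (minus). The Dusp5 and Ier5l windows overlap the 5′ end of the annotated gene, and the Npas4, Nr4a1 and Atf3 windows fall inside it, upstream of an internal RefSeq start. Capitals mark TGACG or its reverse complement CGTCA, the core of the cAMP response element, the CArG box bound by serum response factor, and the EGR motif GCGNGGGCG or its reverse complement.
Fos: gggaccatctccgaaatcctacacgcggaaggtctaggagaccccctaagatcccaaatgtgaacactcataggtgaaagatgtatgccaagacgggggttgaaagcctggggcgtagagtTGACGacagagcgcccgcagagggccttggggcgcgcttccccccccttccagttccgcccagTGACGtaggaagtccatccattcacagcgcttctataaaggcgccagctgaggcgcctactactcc
Npas4: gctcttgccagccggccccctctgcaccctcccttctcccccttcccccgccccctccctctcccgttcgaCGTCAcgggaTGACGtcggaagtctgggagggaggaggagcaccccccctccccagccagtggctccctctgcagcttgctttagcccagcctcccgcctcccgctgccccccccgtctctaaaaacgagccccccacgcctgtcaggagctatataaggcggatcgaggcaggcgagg
Nr4a1: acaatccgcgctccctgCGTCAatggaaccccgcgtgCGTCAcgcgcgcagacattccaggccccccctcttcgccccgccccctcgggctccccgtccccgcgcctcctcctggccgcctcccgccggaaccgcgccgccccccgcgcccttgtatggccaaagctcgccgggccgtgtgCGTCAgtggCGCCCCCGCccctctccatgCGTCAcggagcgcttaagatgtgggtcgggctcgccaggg
Egr4: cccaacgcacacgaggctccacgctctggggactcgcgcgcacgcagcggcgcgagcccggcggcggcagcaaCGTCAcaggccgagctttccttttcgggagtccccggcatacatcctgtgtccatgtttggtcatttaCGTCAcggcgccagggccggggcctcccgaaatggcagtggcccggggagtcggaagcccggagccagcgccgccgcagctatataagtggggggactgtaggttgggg
Atf3: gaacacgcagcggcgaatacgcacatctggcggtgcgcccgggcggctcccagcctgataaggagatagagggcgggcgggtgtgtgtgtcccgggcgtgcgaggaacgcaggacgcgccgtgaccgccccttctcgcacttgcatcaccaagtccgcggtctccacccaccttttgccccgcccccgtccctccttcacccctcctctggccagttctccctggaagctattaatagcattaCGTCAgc
Dusp5: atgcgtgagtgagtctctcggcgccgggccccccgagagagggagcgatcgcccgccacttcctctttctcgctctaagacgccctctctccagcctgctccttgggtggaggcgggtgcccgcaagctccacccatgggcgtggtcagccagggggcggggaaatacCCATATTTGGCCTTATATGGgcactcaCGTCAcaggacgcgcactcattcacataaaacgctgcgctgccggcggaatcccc
Ier5l: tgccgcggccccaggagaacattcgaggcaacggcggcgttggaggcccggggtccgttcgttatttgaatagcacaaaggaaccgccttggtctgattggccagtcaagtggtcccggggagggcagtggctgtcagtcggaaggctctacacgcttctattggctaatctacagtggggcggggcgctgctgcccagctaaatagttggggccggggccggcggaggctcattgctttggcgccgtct

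Both strands were searched. TGACG was found in 20 of the 32 matched promoters (62.5%), against 19.8% of all genes with a promoter of this length, and in 14 of 18 rapid against 6 of 10 delayed members. The full cAMP response element TGACGTCA, which contains TGACG, was found in 4 of 32 (12.5%) against 1.77% of genes. The EGR motif was found in 9 of 32 (28.1%) against 5.33%, the CArG box in 2 of 32 against 1.62%, and the AP-1 motif TGANTCA in 1 of 32 against 7.82%. Fos, Npas4 and Egr4 each hold 2 copies of the TGACG core, Nr4a1 holds 4 beside an EGR motif, and Dusp5 holds adjacent CArG boxes. None of these motifs was found in the Ier5l window. These are matches of letters and not measured binding sites. The shares were not adjusted for the base composition of the promoters or for the number of starts per gene, and Egr2, Csrnp1 and Maff had several. Arc and Egr1 were among the members without a matched entry.

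Per length, the most abundant members in the aged mice a day after training were delayed genes and Arc. In the 16 aged libraries the median level was 71.9 RPKM (reads per kilobase of gene, scaled as CPM) for Plk2, a kinase that weakens synapses after sustained activity, 68.6 RPKM for Nrn1, a secreted neuritogenic protein, 57.9 RPKM for Arc and 27.5 RPKM for Egr1. Fos was far lower at a median of 7.11 RPKM, rank 20 of the members. The lowest were Inhba at 0.262 RPKM, Maff at 0.633 RPKM and Ier5l at 0.725 RPKM. Plk2 and Nrn1 led in the young mice too, with medians of 73.6 and 86.8 FPKM, followed by Nr4a2 at 41.9 FPKM, while Fos stood at 2.67 FPKM and Arc at 16.4 FPKM (rank 10). Some ranks differed between the 2 measures, with Homer1 at 19 in aged and 4 in young mice and Crem at 34 and 11. Counts of Homer1, Crem and Fosb pool their isoforms (Homer1a, ICER and ΔFosB included), whose changes could not be seen separately.

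The question put to the APP mice was whether JQ1 shifted this gene class. Most rapid members lay lower in JQ1-treated than in vehicle-treated APP mice, the delayed members had a median near 0 whose sign turned without 1 vehicle mouse, and a single member passed the test. Ier5l, a member of the immediate early response family of uncertain function (ENSMUSG00000089762, chr2:30471537-30474219, minus strand), fell. Among 16962 genes tested by edgeR's quasi-likelihood method, 0.466% were called lower and 0.619% higher (adjusted p under the 0.05 threshold). The log2 fold change was below 0 for 34 of 43 members, against 50.2% of all genes, and for 22 of 25 rapid and 10 of 14 delayed genes. Members moved together from mouse to mouse, as described below, so such counts, here and in the other comparisons, are not counts of independent genes. The median log2 fold change was -0.38 over rapid genes, -0.08 over delayed genes and -0.00 over every gene tested. Members ranged from -1.07 (Npas4) to 0.24 (Homer1, a scaffold of postsynaptic glutamate receptors). Without the library labelled APP JQ1 replicate 4, 36 members were below 0 (48.8% of all genes), the medians were -0.39 and -0.15, and no member was called by edgeR, while 0.0649% of all genes were called lower. DESeq2, as another tool, called 6 members lower with that library (Gadd45g, Plk3, Egr3, Jund, Egr4 and Ier5l) and 3 without it (Egr3, Egr4 and Ier5l). Over all genes DESeq2 called 377 of 14305 lower with that library and 172 of 14185 without it. From the same mice the study, whose tools included DESeq2, had reported Gadd45g, Plk3, Egr3, Jund and Egr4 as lowered by JQ1. It did not list Ier5l. The DESeq2 calls of the genes it listed are therefore no independent support. Without APP vehicle replicate 1 the rapid median was -0.23 (21 of 25 below 0) and the delayed median 0.04 (6 of 14 below 0), and without both libraries they were -0.29 and 0.02. The delayed median was also -0.05 without APP JQ1 replicate 5. Alignment differed between these groups too. Reads aligned to more than 1 place took 29.7 to 36.4% (median 31.6%) in APP JQ1 against 28.1 to 31.1% (28.8%) in APP vehicle, and reads outside genes had medians of 21.4 and 18.6%, and their part in the shift was not tested.

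**Figure D1:**
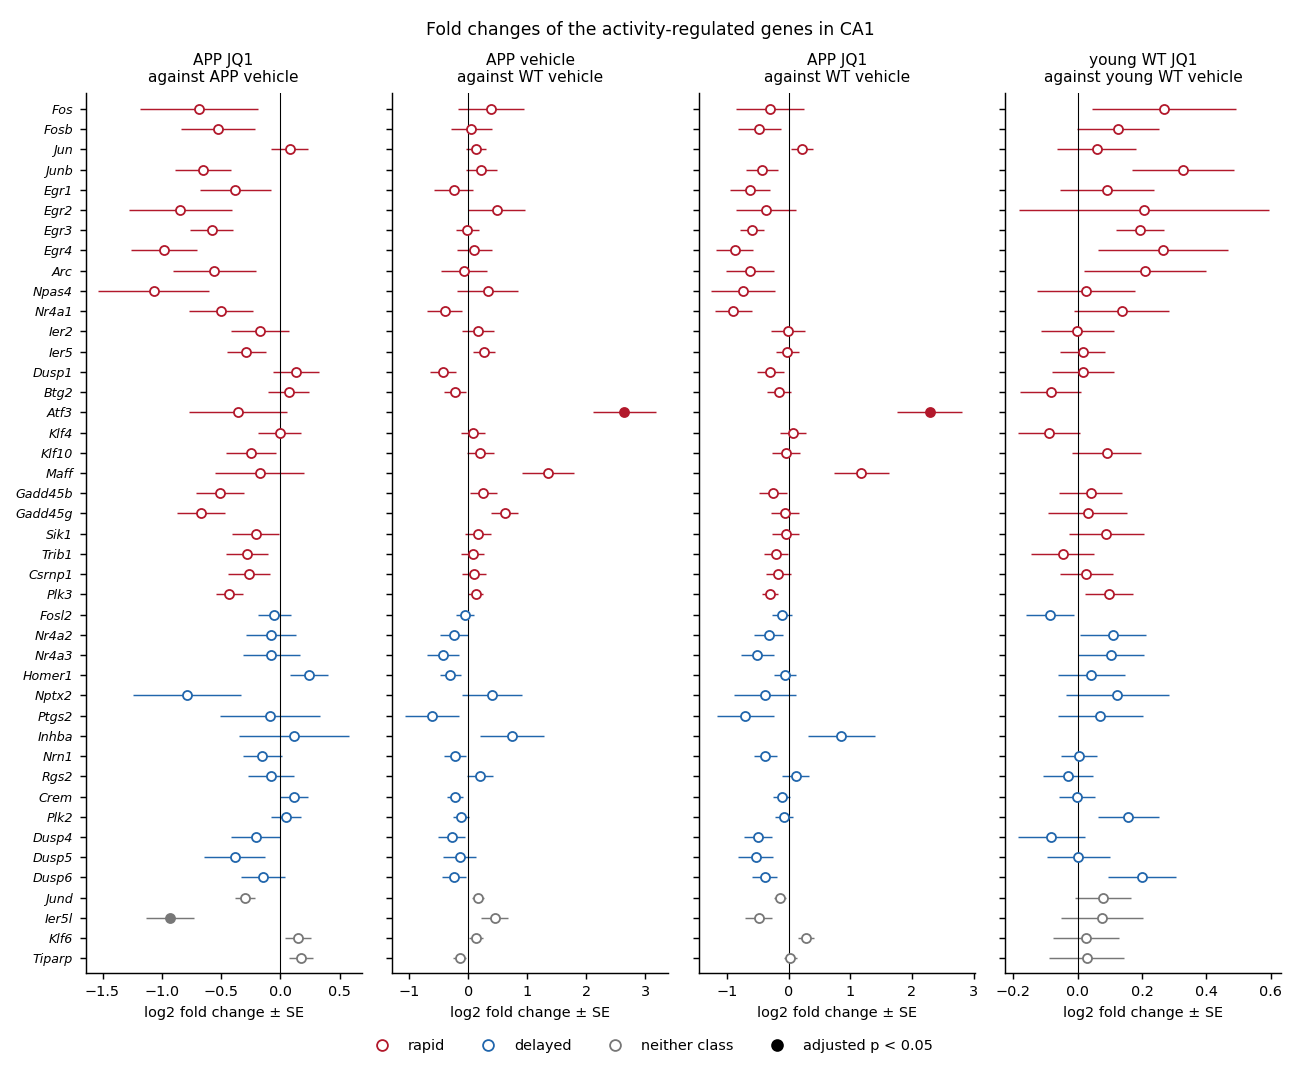
Log2 fold change of each member (horizontal axis, point ± SE) in 4 comparisons, with members in rows, rapid genes in red, delayed in blue and neither in grey, and filled points passing the adjusted p threshold. Most rapid genes lie left of 0 in APP JQ1 against APP vehicle, Ier5l and Atf3 are the filled points, and the young mice show none.

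Ier5l ranged over 1.12, 1.3 and 1.65 CPM (lowest, median and highest) in APP JQ1 and over 2.08, 2.34 and 3.25 CPM in APP vehicle. The groups did not overlap, which was so for 1.15% of all genes in this direction. The log2 fold change was -0.93 (SE 0.20, adjusted p = 0.032, edgeR), with means of 1.34 ± 0.178 and 2.55 ± 0.561 CPM (SD, n = 6 each). Leaving out the library labelled APP JQ1 replicate 4 kept the size (-0.94, SE 0.22) and ended the call (adjusted p = 0.071). The call was also lost without APP JQ1 replicate 2, 3, 5 or 6, APP vehicle replicate 3, 4 or 5 or WT vehicle replicate 3, with adjusted p from 0.003 to 0.435 over all alternatives. Against WT vehicle the log2 fold change of Ier5l was 0.45 in APP vehicle and -0.49 in APP JQ1, all libraries included, and neither passed the test. Jund, an AP-1 subunit that is expressed steadily rather than induced, and Egr3 also had groups that did not overlap. Jund spanned 25.7 to 32.0 CPM against 32.1 to 42.2 CPM (log2 fold change -0.30, SE 0.086, adjusted p = 0.088), and Egr3 spanned 7.81 to 19.2 CPM against 19.9 to 26 CPM (-0.58, SE 0.18, adjusted p = 0.113). They stood at -0.30 (adjusted p = 0.163) and -0.62 (adjusted p = 0.160) without the library labelled APP JQ1 replicate 4.

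Among the other AP-1 subunits no change passed the test. Fos ran from 8.72 through a median of 12.6 to 23.7 CPM in APP JQ1 and from 6.84 through 18.7 to 61.3 CPM in APP vehicle. The groups overlapped over most of their range, and the highest vehicle value, in replicate 1, stood far above the next, 19.1 CPM. Its log2 fold change was -0.69 (SE 0.50, adjusted p = 0.505), and without the library labelled APP JQ1 replicate 4, the highest of its group, it was -0.90 (SE 0.53, adjusted p = 0.490). Without APP vehicle replicate 1 it was -0.07. Junb ran from 13.9 to 31.3 CPM against 21.2 to 44.8 CPM, with -0.65 (SE 0.23, adjusted p = 0.168). Fosb stood at -0.53 (SE 0.31), Jun at 0.08 (SE 0.16) and the delayed subunit Fosl2 at -0.05 (SE 0.14). When the library labelled APP JQ1 replicate 4 was left out, Junb stood at -0.74 (adjusted p = 0.208), Fosb at -0.69, Jun at 0.12 and Fosl2 at -0.12.

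Of the EGR zinc-finger factors, Egr4 had the lowest log2 fold change, without passing the test. It ran from 1.98 through 5.57 to 6.58 CPM in APP JQ1 and from 5.70 through 10.0 to 12 CPM in APP vehicle. The groups overlapped only between 5.70 and 6.58 CPM (log2 fold change -0.98, SE 0.27, adjusted p = 0.082). Egr2 stood at -0.84 (SE 0.44, adjusted p = 0.328) and Egr1 at -0.38 (SE 0.30, adjusted p = 0.539). Without the library labelled APP JQ1 replicate 4 the Egr4 value was -1.03 (SE 0.30, adjusted p = 0.138), that of Egr2 -1.01 (adjusted p = 0.350) and that of Egr1 -0.59 (adjusted p = 0.376).

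Npas4, which activates inhibitory synapse formation in active neurons, ran from 6.13 through 11.8 to 23.5 CPM in APP JQ1 and from 11.4 through 17.1 to 75.8 CPM in APP vehicle. Its log2 fold change of -1.07 (SE 0.47) was the lowest of the members and did not pass (adjusted p = 0.253). It was -1.32 without the library labelled APP JQ1 replicate 4 (adjusted p = 0.255) and -0.43 without APP vehicle replicate 1. Arc ran from 57.2 through 142 to 236 CPM against 112, 220 and 318 CPM, with -0.56 (SE 0.35, adjusted p = 0.433), and -0.77 (SE 0.35, adjusted p = 0.358) without the library labelled APP JQ1 replicate 4. In both genes the groups overlapped, and the lowest value of all belonged to APP JQ1 replicate 1. Among the orphan nuclear receptors Nr4a1 stood at -0.50 (SE 0.27, adjusted p = 0.355), whereas the delayed Nr4a2 and Nr4a3 stood at -0.08 each (SE 0.21 and 0.24). The receptors stood at -0.71 (adjusted p = 0.226), -0.18 and -0.22 without the library labelled APP JQ1 replicate 4.

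**Figure D2:**
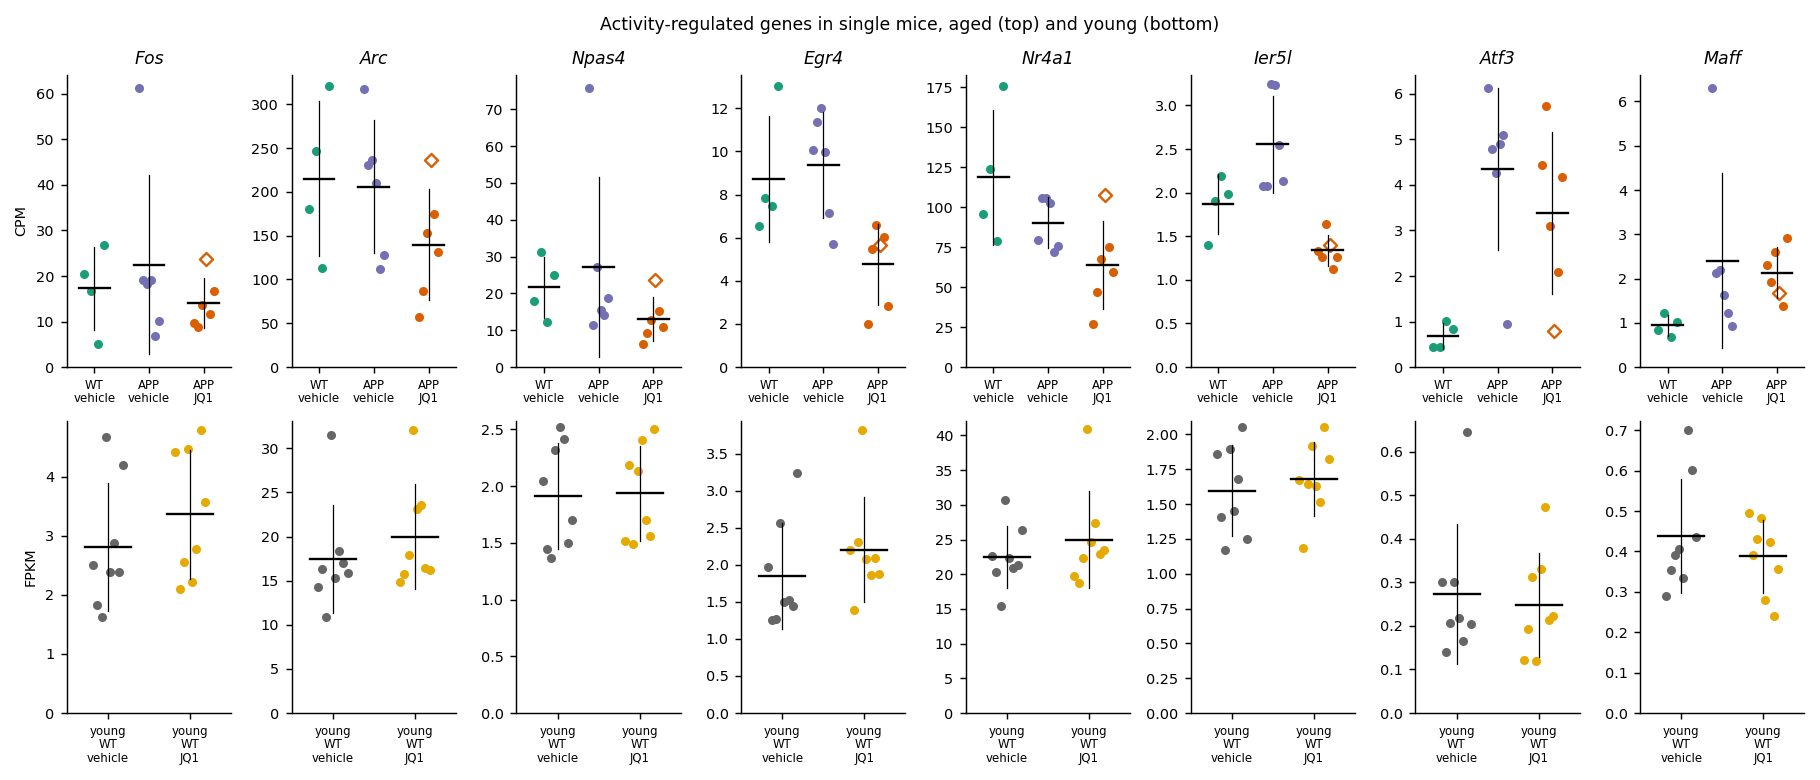
Level of 8 members in every mouse, as CPM in aged mice (upper row) and FPKM in young mice (lower row), with the mean as a horizontal line, ±1 SD as a vertical line and the library labelled APP JQ1 replicate 4 as an open diamond. APP vehicle replicate 1 is the topmost point for Fos at 61.3 CPM and Npas4 at 75.8 CPM, and Atf3 is raised in APP mice other than the diamond and APP vehicle replicate 6.

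None of the growth, stress and feedback members passed the test. Gadd45g and Gadd45b, which take part in DNA demethylation and stress signalling, stood at -0.67 (SE 0.20, adjusted p = 0.103) and -0.51 (SE 0.21, adjusted p = 0.204), and Plk3, a stress kinase, at -0.43 (SE 0.11, adjusted p = 0.070). The feedback phosphatases Dusp1, Dusp4, Dusp5 and Dusp6 stood at 0.13, -0.21, -0.39 and -0.15, with SE of 0.20, 0.21, 0.25 and 0.19. Nptx2, which clusters AMPA receptors, stood at -0.79 (SE 0.45), with 127 CPM in APP vehicle replicate 1 and at most 28.1 CPM in the other vehicle mice. The remaining rapid members, Ier2, Ier5, Btg2, Klf4, Klf10, Sik1, Trib1 and Csrnp1, lay between -0.29 and 0.07, with Maff at -0.18 (SE 0.38) and Atf3 at -0.36 (SE 0.41). The remaining delayed members, Ptgs2, Inhba, Nrn1, Rgs2, Crem and Plk2, lay between -0.15 and 0.12, and Klf6 and Tiparp stood at 0.15 and 0.18. With the library labelled APP JQ1 replicate 4 left out, Gadd45g stood at -0.61, Gadd45b at -0.55 and Plk3 at -0.39 (adjusted p = 0.216, 0.281 and 0.163), Dusp1 turned to -0.03, and Dusp4, Dusp5 and Dusp6 stood at -0.28, -0.52 and -0.28. Nptx2 then stood at -0.77, Atf3 at -0.15 and Maff at -0.11. In all, 9 members had an unadjusted p under 0.05 in the lower direction, 7 of them rapid and 0 delayed (9.19% of all genes), and 0 did in the higher direction (8.42% of all genes). In the lower direction 13 did without the library labelled APP JQ1 replicate 4, 11 of them rapid (6.76% of all genes).

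The effect of the APP genotype was read from APP vehicle against WT vehicle, a comparison that uses the same APP vehicle mice as the one above. Atf3, a stress-induced member of the ATF/CREB family that marks injured neurons and reactive cells (ENSMUSG00000026628, chr1:191170296-191218039, minus strand), rose, and no other member passed the test. Of all genes 2.49% were called higher and 0.0825% lower. The median log2 fold change was 0.13 over rapid and -0.23 over delayed genes, and 6 of 25 rapid against 11 of 14 delayed genes were below 0 (48.4% of all genes). The rapid median was 0.06 without WT vehicle replicate 4 and 0.24 without WT vehicle replicate 5, and the delayed median -0.12 without WT vehicle replicate 1. At an unadjusted p under 0.05 Atf3, Maff and Gadd45g were higher (3 members, against 9.42% of all genes) and 0 members were lower (5.01%). Without the library labelled APP JQ1 replicate 4, which belongs to neither group but shares the fit, Atf3 was again the one member called and the medians were 0.12 and -0.24 (3.32% of all genes were called higher and 0.224% lower).

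Atf3 stood at 0.448, 0.440, 1.01 and 0.845 CPM in WT vehicle and ran from 0.936 through 4.85 to 6.14 CPM in APP vehicle. The lowest APP value, in replicate 6, lay within the WT range, and the other 5 lay well above it. The log2 fold change was 2.64 (SE 0.53, adjusted p = 0.010, edgeR), and 2.63 (SE 0.45, adjusted p = 0.001) without the library labelled APP JQ1 replicate 4. In the WT libraries 3 reads were worth 0.126 to 0.148 CPM, so the fold rests on few WT reads, and the call was lost without WT vehicle replicate 1 or 3 (adjusted p = 0.059 and 0.055; 3.6e-08 to 0.084 over the alternatives). Markers of microglia moved with Atf3. The sum over 4 microglial markers was 142 to 166 CPM in WT vehicle, 281 to 520 CPM in APP vehicle and 161 to 480 CPM in APP JQ1, and the 2 APP libraries with the lowest Atf3 also held the lowest sums, 161 and 281 CPM. Markers of astrocytes did so too. The sum over 4 of them was 1171 to 1254 CPM in WT vehicle, 2207 to 6229 CPM in APP vehicle and 1391 to 5637 CPM in APP JQ1, and the same 2 libraries held the lowest APP sums, 1391 and 2207 CPM. None of the markers in either list was at 0 throughout a group. The part of microglia and astrocytes in the Atf3 difference was not tested.

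Maff, a small MAF partner of AP-1 type factors, stood at 0.847, 1.22, 0.675 and 1.01 CPM in WT vehicle and ran from 0.936 through 1.87 to 6.31 CPM in APP vehicle. The groups overlapped at the low end (log2 fold change 1.35, SE 0.45, adjusted p = 0.141). Inhba, the activin A subunit that protects neurons, stood at 0.946, 1.66, 1.69 and 1.14 CPM and ran from 0.704 through 1.26 to 6.84 CPM, so that the groups overlapped (0.74, SE 0.54, adjusted p = 0.564). Gadd45g stood at a log2 fold change of 0.62 (SE 0.23, adjusted p = 0.205). Fos and Arc differed by less than the spread between mice, with 0.38 (SE 0.56) and -0.06 (SE 0.39). Without APP vehicle replicate 1 the log2 fold change was -0.23 for Fos, -0.31 for Npas4 (0.33 with it), 0.78 for Maff, 3.1e-05 for Inhba and -0.03 in the median of rapid genes. In single mice Fos stood at 20.5, 16.7, 5.06 and 26.7 CPM in WT vehicle and Arc at 180, 246, 114 and 321 CPM, within the APP vehicle range or just beside it. Of the delayed genes Ptgs2, the inducible cyclooxygenase, stood at -0.61 (SE 0.46) and Nr4a3 at -0.43 (SE 0.26).

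JQ1-treated APP mice were also set against WT vehicle, which shares its groups with the comparisons above. Atf3 rose and no other member passed by edgeR, where 1.93% of all genes were called higher and 0.13% lower. DESeq2 called Nr4a1 lower beside Atf3, and over the 18045 genes it tested it called 693 higher and 107 lower. Atf3 ran from 0.80 through 3.63 to 5.73 CPM in APP JQ1, its lowest value being that of the library labelled APP JQ1 replicate 4 (log2 fold change 2.29, SE 0.52, adjusted p = 0.028). The call was lost without APP JQ1 replicate 1, 2 or 6 or any 1 of the 4 WT vehicle libraries (adjusted p from 9.8e-07 to 0.182 over the alternatives). In this comparison 35 of 43 members were below 0 (49.9% of all genes), 21 rapid and 12 delayed, with medians of -0.26 and -0.35. The rapid median was -0.13 (17 of 25 below 0) without WT vehicle replicate 5, and the delayed median -0.21 (10 of 14) without WT vehicle replicate 1. At an unadjusted p under 0.05, 6 members were lower, namely Egr3, Egr4, Nr4a1, Plk3, Dusp4 and Ier5l (4.46% of all genes), and Atf3, Maff and Klf6 were higher (9.64%). Maff lay above WT vehicle in every APP JQ1 mouse, at 1.39 to 2.91 CPM against 0.675 to 1.22 CPM (2.55% of all genes had such groups), but did not pass (1.18, SE 0.45, adjusted p = 0.217).

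Without the library labelled APP JQ1 replicate 4, Nr4a1 was called by edgeR too. Nr4a1, a nuclear receptor that restrains excitatory synapses and inflammation (ENSMUSG00000023034, chr15:101254269-101274795, plus strand), stood at 95.9, 124, 78.8 and 175 CPM in WT vehicle and at 26.7, 47.1, 67.3, 74.7 and 59.5 CPM in the 5 other APP JQ1 mice. The groups did not overlap (1.84% of all genes in this direction), and the left-out library held 108 CPM. The log2 fold change was -1.12 (SE 0.27, adjusted p = 0.032) and 0.242% of all genes were called lower, against -0.90 (SE 0.30, adjusted p = 0.154) with it. Atf3 then stood at 2.48 (SE 0.45, adjusted p = 0.003; 3.6% of all genes were called higher). Nr4a3, Nrn1 and the phosphatase Dusp4 also lay below WT vehicle in all 5 mice without passing the test (adjusted p = 0.226, 0.302 and 0.239), as Atf3, Maff and Inhba lay above it (5.88% of all genes). The medians were then -0.28 over rapid and -0.40 over delayed genes.

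In young WT mice no member passed the test for JQ1 against vehicle, by limma's moderated test on log2(FPKM + 0.1), with an adjusted p of at least 0.981 for every member. Of the 18420 loci tested 0.00543% were called lower and 0% higher. A single member, Egr3, had an unadjusted p under 0.05, where 2.09% of all loci did so in the higher direction and 2.56% in the lower. The log2 fold change was below 0 for 8 of 40 members (48.9% of all loci), 4 of 23 rapid and 4 of 13 delayed, with medians of 0.09 and 0.04. The rapid median was 0.03 (7 of 23 below 0) without young WT JQ1 replicate 4 and 0.05 (9 of 23) without young WT vehicle replicate 2, 9 of 23 were below 0 without young WT vehicle replicate 3, and the delayed median ran from 0.01 to 0.07 with 1 mouse left out. The young and aged values come from separate tables of mice that also differed in age, sex and days of treatment, and the difference between them was not tested.

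Egr3 in young mice ran from 15.8 through 17.6 to 20.9 FPKM with vehicle and from 16.6 through 20.9 to 25.5 FPKM with JQ1 (log2 fold change 0.19, SE 0.074). Junb ran from 3.42 through 4.64 to 6.11 FPKM against 3.33, 5.89 and 8.48 FPKM (0.33, SE 0.16). Fos ran from 1.62 through 2.45 to 4.67 FPKM against 2.10, 3.18 and 4.79 FPKM (0.27, SE 0.22). In each gene the groups overlapped over most of their range. Egr4 ran from 1.26 through 1.51 to 3.24 FPKM against 1.4, 2.09 and 3.81 FPKM (0.27, SE 0.20). Npas4, lowest of the members in APP mice by its fold change, stood here at 1.37 to 2.52 FPKM with vehicle and 1.49 to 2.51 FPKM with JQ1 (0.02, SE 0.15). Arc stood at 0.21 (SE 0.19), Ier5l at 0.08 (SE 0.13), and Atf3 ran from 0.141 to 0.645 FPKM against 0.120 to 0.474 FPKM, under the filter. The 2 loci of Inhba had adjusted p of 0.981 and 0.989.

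Other genes of the same programme were taken from lists of 20, chosen with earlier results of these data known. The study had itself reported Amigo3, Vgf, Gpr3, Midn, Kdm6b and Map2k2, all on these lists, as lowered by JQ1 in these APP mice. It had reported Rps6ka5, also listed, as raised. The calls below are therefore no independent support, and the counts are descriptions. Of 20 further activity-regulated genes, 2 fell in APP JQ1 against APP vehicle, Amigo3 (-0.83, adjusted p = 0.032), a cell adhesion protein, and Vgf (-0.78, adjusted p = 0.034), a secreted neuropeptide precursor (0.466% of all genes were called lower), and 13 were below 0 (50.2%). Vgf also fell against WT vehicle (-0.84, adjusted p = 0.025; 0.13% of all genes), and none of the 20 was called in APP vehicle against WT vehicle or in young mice. Of 20 genes that carry the signal from synapse to nucleus, Map2k2, a kinase above ERK, fell in APP JQ1 against APP vehicle (-0.39, adjusted p = 0.046), the one gene of that list called lower (0.466% of all genes). Without the library labelled APP JQ1 replicate 4 none of these was called in that comparison, while Vgf was still called against WT vehicle.

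In the median, members varied more between mice of a group than all genes did. The SD of log2 levels within groups had a median of 0.38 over rapid and 0.39 over delayed genes in aged mice, against 0.25 over all genes (0.37, 0.38 and 0.25 without the library labelled APP JQ1 replicate 4), and of 0.23 and 0.22 against 0.19 in young mice. Fos reached 0.90 and Egr2 0.83 in aged mice, at the 94.6th and 93.3rd percentiles of all genes, whereas Jund stood at 0.14. The heat map of deviations shows this spread mouse by mouse.

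**Figure D3:**
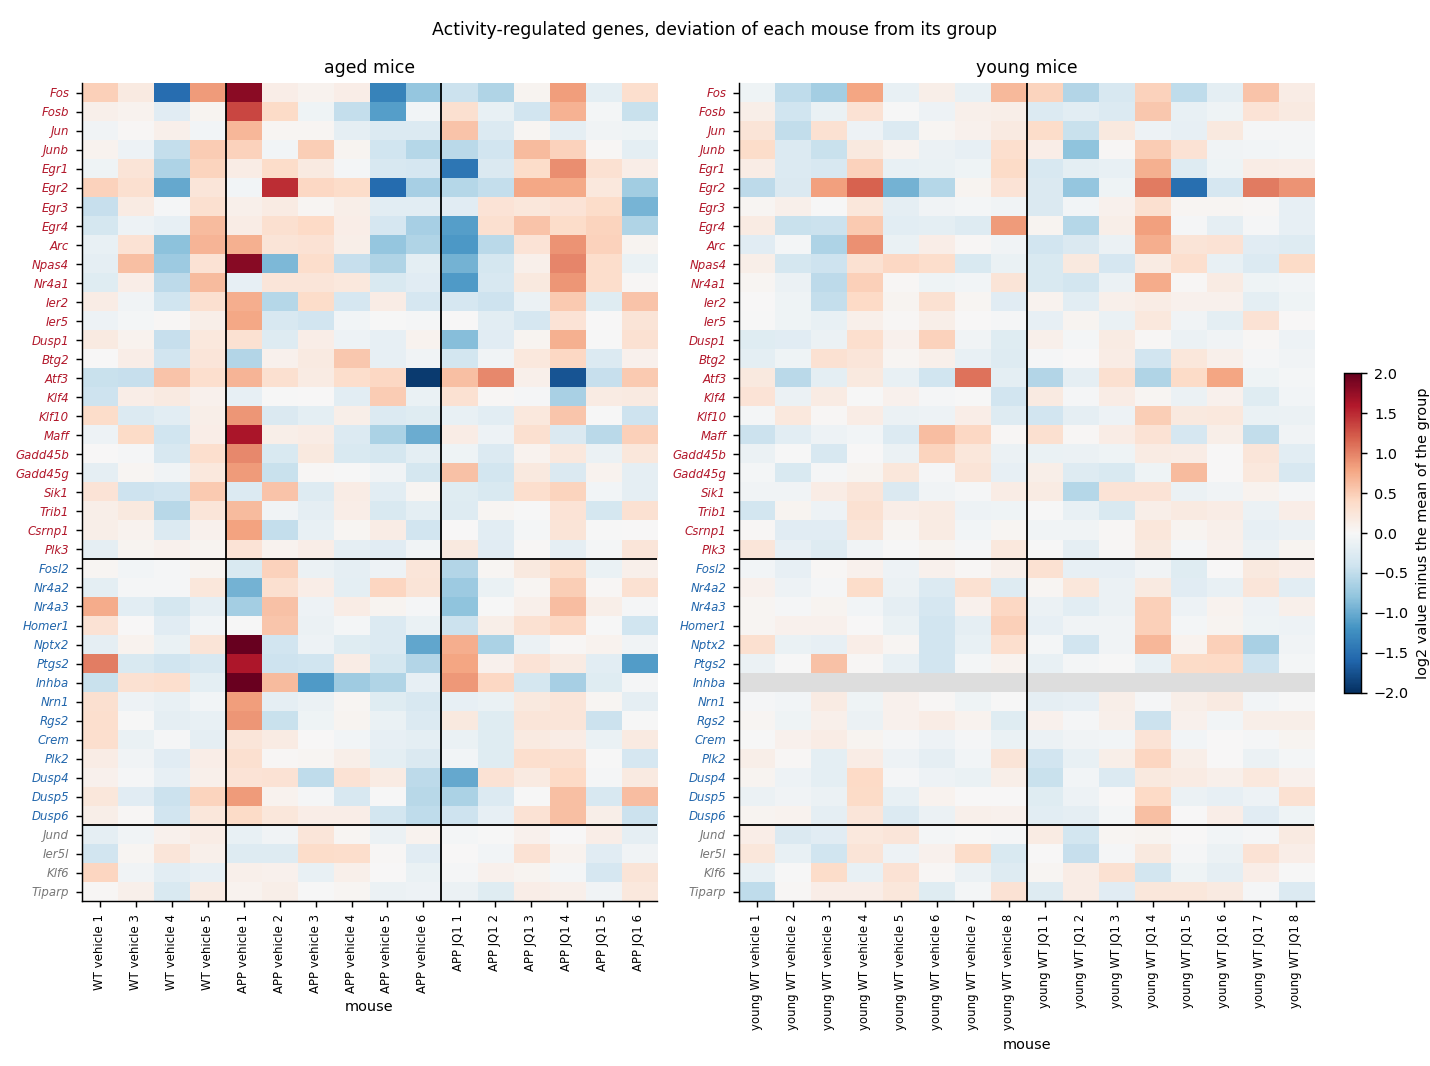
Deviation of each member (rows) from its group mean in each mouse (columns), on the log2 scale with a pseudocount of 0.1, for aged and young mice (colour scale at the side), with grey where Inhba is not shown. APP vehicle replicate 1 is a column of high values and APP JQ1 replicate 1 has low Arc (57.2 CPM) and Egr1 (33.8 CPM).

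The members also moved together from mouse to mouse, and which of them moved with Fos was asked over the 16 aged mice after removal of group means. The median Pearson r with Fos was 0.59 over the other 24 rapid genes (22 positive) and 0.52 over 14 delayed genes (13 positive), against -0.02 over every other gene tested. The 4 members in neither class had a median of 0.05. The rapid and delayed medians were 0.54 and 0.50 without the library labelled APP JQ1 replicate 4, and 0.50 and 0.39 without APP vehicle replicate 1. The points share library, depth and cell make-up, and the medians are descriptions. In young mice the medians were 0.40 (19 of 22 positive), 0.25 (9 of 13) and 0.02 over every other locus. The young delayed median was 0.12 without young WT JQ1 replicate 4 and 0.14 without young WT vehicle replicate 8.

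Trib1, a pseudokinase that tunes MAPK signalling, was the gene of all tested with the largest positive r with Fos in aged mice. Its r was 0.88 (permutation p = 0.00028) and Spearman's rho 0.87 (permutation p = 0.00024), falling to 0.66 without the 2 mice farthest in Fos, APP vehicle replicate 1 and WT vehicle replicate 4. Gadd45b followed at rank 3 (r = 0.84, permutation p = 0.00019; rho = 0.79; 0.64 without those 2 mice) and Arc at rank 4 (r = 0.81, permutation p = 9e-05; rho = 0.75; 0.80 without them). Among delayed genes the largest were Dusp5 (r = 0.77), Nrn1 (0.75) and Dusp6 (0.74), which stood at 0.62, 0.49 and 0.71 without them. The r of these 6 genes were 0.87, 0.84, 0.80, 0.75, 0.73 and 0.72 without the library labelled APP JQ1 replicate 4. The genes outside the list with the largest r were Hsph1 (0.84), Jmjd6 (0.81), Wdr36, Tnfaip3 and Pi4k2a (0.80 each). The most negative were Slc2a12 (-0.90) and Igf2 (-0.87), adjusted p = 0.082 each by edgeR. For these genes no r without the 2 mice farthest in Fos is given. Igf2 is also part of the meningeal marker sum set against Fos below, so the 2 relations are not separate. With 16961 relations tested by edgeR none passed, with adjusted p of 0.108 for Trib1, 0.118 for Gadd45b and 0.164 for Arc and 0% of genes called; 24 of 42 members had an unadjusted p under 0.05 (5.76% of all genes). Nptx2 fell from 0.62 to 0.20 and Csrnp1 from 0.65 to 0.07 without the 2 mice, so their relation with Fos rests on those mice.

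Some members did not follow Fos. Klf4, a factor expressed by vascular as well as neural cells, had r = -0.56 (permutation p = 0.030) in aged mice, Atf3 -0.06 and Egr3 0.14, and among delayed genes Nr4a2 had -0.29, Fosl2 0.04 and Nr4a3 0.07. These r were -0.51, 0.14, 0.08, -0.44, -0.09 and -0.06 without the library labelled APP JQ1 replicate 4. Within groups Nr4a2 had r = 0.82 in APP JQ1 and -0.90 in APP vehicle, a difference that was not tested. Each of these r rests on 6 mice. They include the library labelled APP JQ1 replicate 4 and APP vehicle replicate 1, the highest Fos of their groups, and no r without them is given. In young mice Egr4 had the largest r of the members with Fos (0.75, permutation p = 0.00093; rho 0.76; 0.78 without young WT JQ1 replicate 7 and young WT vehicle replicate 4; adjusted p = 0.118 by limma), then Egr1 (0.73, adjusted p = 0.118), Fosl2 (0.69, adjusted p = 0.143) and Fosb (0.67, adjusted p = 0.166), ahead of Dusp5 (0.48) and Dusp4 (0.42). Trib1, first in aged mice, had 0.25. Ptgs2 at -0.51, Nrn1 at -0.43, Btg2 and Rgs2 at -0.37 each, Klf4 at -0.33 and Klf10 at -0.15 lay at the other end. Outside the list the largest r were those of Gys1 (0.89), Pacsin1 (0.88), Hyou1 and Gareml (0.87 each) and Zbtb4 (0.86). No locus was called (0%), and 11 of 39 members had an unadjusted p under 0.05 (15.3% of all loci).

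**Figure D4:**
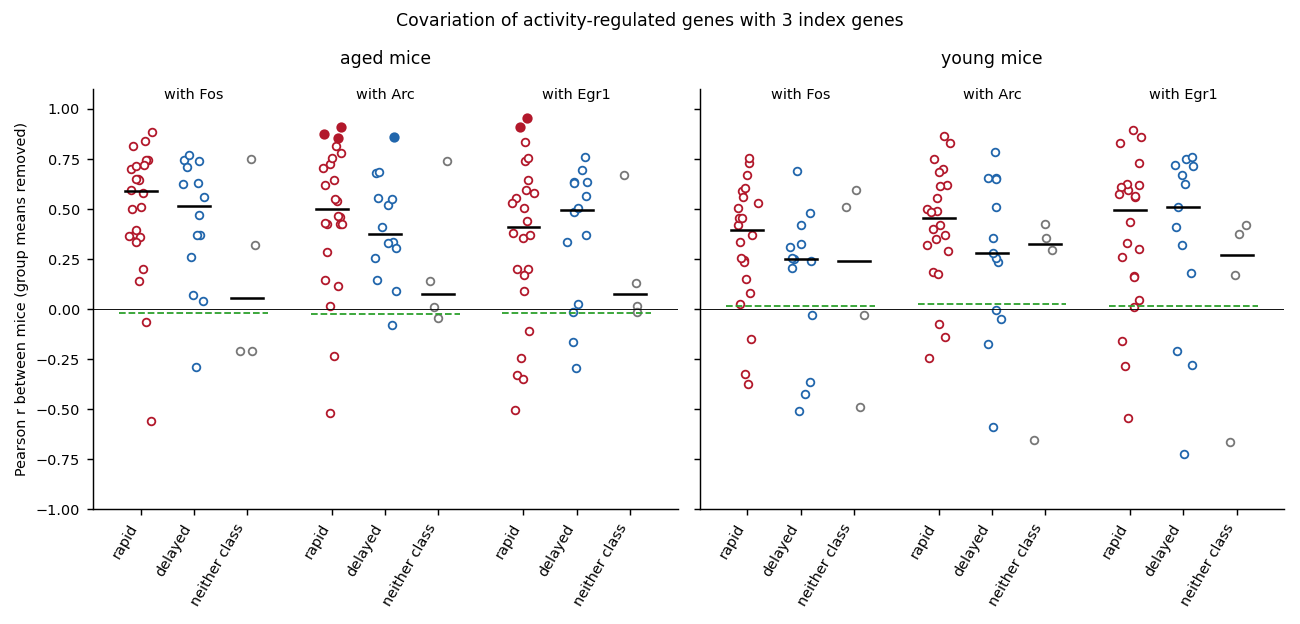
Pearson r across mice, after removal of group means, of each member with Fos, Arc and Egr1 in aged and young mice, with filled points passing the adjusted p threshold, black lines at class medians and a green dashed line at the median of every other gene. Both classes lie above the green line for Fos, with medians of 0.59 and 0.52 in aged mice, and filled points appear for Arc and Egr1 in aged mice.

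Tighter relations were found with Arc and Egr1 as the index gene. With Arc, 4 of 16961 genes passed in aged mice (0.0236%), and all 4 were members. They were Egr1 (r = 0.91, permutation p = 1e-05, the smallest these permutations can give; rho = 0.89; adjusted p = 0.005), Nr4a1 (r = 0.88, adjusted p = 0.014), Dusp6 (r = 0.86, adjusted p = 0.039) and Junb (r = 0.86, adjusted p = 0.049). Without the 2 mice farthest in Arc, APP JQ1 replicates 1 and 2, these r were 0.90, 0.79, 0.86 and 0.81, and without the library labelled APP JQ1 replicate 4 they were 0.89, 0.85, 0.83 and 0.84. Of these the Egr1 call alone was kept whichever of the 16 libraries was left out, and it stood alone without APP JQ1 replicate 1, 2 or 4 or WT vehicle replicate 4 or 5. With Egr1, 2 genes passed (0.0118%), Nr4a1 (r = 0.95, adjusted p = 6e-05) and Arc (r = 0.91, adjusted p = 0.003), and both calls were kept in all 16 such fits.

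The group of Arc, Egr1 and Nr4a1 can be read in single mice. Arc, Egr1 and Nr4a1 stood at 57.2, 33.8 and 26.7 CPM in APP JQ1 replicate 1, the lowest aged mouse for each. They stood at 321, 210 and 175 CPM in WT vehicle replicate 5, the highest for each. APP vehicle replicate 1, with 61.3 CPM of Fos, had 318, 146 and 79.2 CPM, so that its Nr4a1 lay below the group's median of 91.0 CPM. Egr1 and Arc were also tied within groups, with r = 0.97 in APP JQ1 and 0.85 in APP vehicle (n = 6 each, with the library labelled APP JQ1 replicate 4 included). In young mice the r of Nr4a1 with Arc was 0.87 (adjusted p = 0.066 by limma; 0.73 without the 2 farthest mice), while that of Egr1 with Arc was 0.62 and fell to 0.07 without young WT JQ1 replicate 4 and young WT vehicle replicate 4, on which it rests.

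Over pairs of members the median r in aged mice was 0.35 for 300 rapid pairs, 0.36 for 91 delayed pairs and 0.33 for 350 pairs of a rapid and a delayed gene. It was 0.25, 0.29 and 0.24 without APP vehicle replicate 1, and 0.31, 0.32 and 0.28 without the library labelled APP JQ1 replicate 4. In young mice the medians were 0.25, 0.18 and 0.17, and 0.18, 0.11 and 0.11 without young WT JQ1 replicate 4. Over every pair of genes tested the median was -0.001 in aged and 0.005 in young mice. The summed meningeal markers ran against Fos in aged mice (r = -0.74, permutation p = 0.00703, adjusted p = 0.098 over 14 relations; -0.31 without the 2 farthest mice, on which it rests). Against Arc they had r = -0.63 in aged mice (adjusted p = 0.198 by permutation; -0.59 without the 2 farthest) and -0.79 in young mice (adjusted p = 0.012 over 11 relations by permutation; -0.44 without the 2 farthest). The CA1 pyramidal markers had r = 0.56 with Arc in aged and 0.59 in young mice (adjusted p = 0.325 and 0.089 by permutation). The part of CA1 neuron content and of meningeal tissue in the covariation was not tested.

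Rapid genes are GC-rich (median 55.6% against 49.8% over all genes and 47.9% over delayed genes), and with a correction for gene GC and length together the rapid median in APP JQ1 against APP vehicle was -0.29 with 19 of 25 below 0 and the delayed median -0.10 with 12 of 14 below 0, while Ier5l was not called (-0.58, adjusted p = 0.328). That correction also changed the split of calls over all genes, from 105 higher and 79 lower to 35 and 7 in APP JQ1 against APP vehicle, from 422 and 14 to 374 and 78 in APP vehicle against WT vehicle, where the rapid median became -0.07, that of all genes also being -0.07, and from 327 and 22 to 338 and 179 in APP JQ1 against WT vehicle. Jun, Junb, Dusp1, Atf3, Csrnp1, Plk3, Nrn1, Crem, Jund and Tiparp overlap another listed gene, and whether counting used strand was not stated, so reads of the partners could not be told apart there.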

How the data were processed

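CA1 RNA was sequenced on a HiSeq2000 from individual mice, and 32 of 33 labelled samples were used; WT vehicle replicate 2 is not analysed here. For the aged mice the authors aligned reads to mm10 with STAR, allowing 2 mismatches, and deposited raw counts per gene from htseq; for the young mice the authors deposited FPKM values per locus from cufflinks and cuffdiff. Basecalling used CASAVA 1.8.2 per the submitters' processing notes; strand setting and annotation release are not given in the sources used here. Of aged alignments 26.7 to 36.4% were not unique, and of the rest 15.4 to 26.9% fell outside genes and were left out.

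Counts were tested with edgeR 4.0.16 (TMM, filterByExpr, robust quasi-likelihood F test, 1 fit of the 16 aged libraries) and FPKM with limma 3.58.1 (trend, robust) on log2(FPKM + 0.1), which understates changes of low genes, over loci at 0.5 FPKM or more in at least 8 mice. P-values were adjusted by Benjamini-Hochberg over all genes tested at a threshold of 0.05. CPM are TMM-scaled and log2 CPM carry a prior count of 2. Covariation was tested as a slope on the index gene with group as covariate, and r and rho were taken on group-centred values with 100000 permutations within groups (two-sided, smallest p 1e-05). The tests across genes were checked on simulated data. Gene GC and length, from GENCODE on GRCm38, covered 98.9% of the genes tested; promoters are from RefSeq.

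The members and lists were chosen with earlier results of these data known. Values per mouse are given for members past the threshold, for Fos, Arc and Npas4 and for the 3 largest fold changes of each comparison; covariation names the 3 largest and smallest r of each class and the 5 largest outside the list. Jund, Egr3, Junb, Nr4a1, Egr1 and Nptx2 values beyond that rule were added after the values were seen. Alternatives were other size factors, DESeq2 1.42.0, other filters, GC and length offsets, the replicate block, each library left out, other pseudocounts and other index genes; those without APP JQ1 replicate 4 combined with another choice, and the left-out libraries for Arc, Egr1 and the class medians of r and spread, were chosen after seeing the data. Each sample is 1 mouse by its labels, and no pair of aged libraries of the same group agreed within sampling noise (lowest chi-square per degree of freedom 5.62). Aged libraries of different groups were not compared in this way. Young libraries were checked only for identical values, and no such pair was found. Precision of low counts covers counting error only. R 4.3.3, Python 3.11.15 and scipy 1.17.1 were used. One further element of the APP line is not reported here.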

Additional observations from a re-analysis of the deposited data

Results flagged for a closer look

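Within each group, a value was picked out where its gap to the nearest other mouse was large against the range of the group (Dixon's 95% limit). Over all members 39 of 213 sets of values were picked out (18.3%). The limit allows about 1 in 20 for independent, normally distributed values, whereas these were CPM and FPKM not on a log scale, and members covary. The share cannot therefore be set against that rate. Of the 39, 14 belonged to APP vehicle replicate 1 and 8 to young WT JQ1 replicate 4, and those of 1 mouse are not separate events.

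APP vehicle replicate 1 was the highest of its 6 mice in Fos (61.3 CPM), Npas4 (75.8 CPM), Nptx2 (127 CPM), Nrn1 (278 CPM), Maff (6.31 CPM) and Inhba (6.84 CPM). The set spans rapid transcription factors and delayed synaptic or secreted products, whereas Arc (318 CPM), also the highest there, was not picked out, and Egr1 (146 CPM) and Nr4a1 (79.2 CPM) lay within the range of the others. Atf3 was low in APP vehicle replicate 6 (0.936 CPM), the APP vehicle mouse with the lowest microglial marker sum, 281 CPM. Nrn1 was high in WT vehicle replicate 1 (235 CPM).

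In young mice JQ1 replicate 4 was the highest of its 8 mice in Egr1 (55.9 FPKM), Nr4a1 (40.9 FPKM), Dusp6 (31.8 FPKM) and Egr4 (3.81 FPKM), of which Egr1, Nr4a1 and Dusp6 also passed the test of covariation with Arc in aged mice. Arc was high in young WT vehicle replicate 4 (31.5 FPKM), Atf3 in young WT vehicle replicate 7 (0.645 FPKM), and Jund was low in young WT JQ1 replicate 2 (7.30 FPKM). Young WT JQ1 replicate 4 also held the highest CA1 pyramidal marker sum of its group (400 FPKM) and the lowest meningeal sum (37.4 FPKM). APP vehicle replicate 1 held the highest astrocyte sum of its group (6229 CPM), the lowest meningeal sum (87.7 CPM) and the lowest CA1 pyramidal sum (1090 CPM). What sets these mice apart was not tested.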

How the results depend on the processing

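The count of members called in APP JQ1 against APP vehicle, 1 in the reported fit, was 0 with no filter on low counts, with GC and length offsets, with only the 2 groups compared and without both APP JQ1 replicate 4 and APP vehicle replicate 1 or with offsets and no APP JQ1 replicate 4. It was 6 with DESeq2 (5.24% of all genes called) and 3 with DESeq2 and no APP JQ1 replicate 4 (2.75%). With 1 library left out it was 0 to 2. In APP vehicle against WT vehicle the count, 1, was 0 with at least 10 counts in every sample, where Atf3 could not be tested, 2 without both libraries (Atf3 and Nrn1) and 0 to 1 with 1 library left out. In APP JQ1 against WT vehicle the count, 1, was 0 with at least 10 counts, 2 with DESeq2 (Nr4a1 and Atf3), 3 with DESeq2 and 2 with offsets when APP JQ1 replicate 4 was also left out, 4 without both libraries and 0 to 2 with 1 library left out. Of all genes 4.43% were called with DESeq2. When APP JQ1 replicate 4 was also left out 5.53% were called with DESeq2 and 6.13% with offsets, and 4.31% without both libraries. In young mice it stayed at 0 under every alternative run. Members that covaried with Fos in aged mice, 0, numbered 4 with Arc and 2 with Egr1 as index, 0 to 1 with 1 library left out, and 0 to 1 in young mice; with Arc 1 to 5 and with Egr1 2 to 3 were called with 1 library left out.

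Over all genes the calls in APP JQ1 against APP vehicle, 184, were 749 with DESeq2, 42 with offsets, 87 with the replicate block and 73 without APP JQ1 replicate 4. In APP vehicle against WT vehicle the calls, 436, were 798 with DESeq2, 35 with the block and 679 with only the 2 groups compared. In APP JQ1 against WT vehicle the calls, 349, were 800, 21 and 227 in the same order, and 153, 25, 30 and 11 without WT vehicle replicate 1, 3, 4 or 5. The cause of these differences was not tested.

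Directions turned for some values. In APP vehicle against WT vehicle Arc, -0.06, ranged from -0.29 to 0.19, Fos from -0.23 to 0.67 and Npas4 from -0.31 to 0.55 with 1 library left out, and without both libraries Fos, Npas4 and Inhba stood at -0.23, -0.31 and -0.00023. The delayed median in APP JQ1 against APP vehicle, -0.08, was 0.04 without APP vehicle replicate 1. Npas4 in young mice ranged from -0.036 to 0.083.

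Groups share replicate numbers in the labels, and whether the numbers pair the mice was not settled. Correlations of same-numbered mice ran from -0.11 to 0.34 between the APP groups, and 3 of 6 mice correlated best with their own number. The mean was 0.12 there, against -0.02 for other numbers. It was -0.05 against 0.02 between APP vehicle and WT vehicle, and -0.22 against 0.05 between APP JQ1 and WT vehicle. Between the young groups it was 0.026 against -0.004. With the replicate block the count of members called was 0 in each aged comparison, also with GC and length offsets, 0 in young mice, and the log2 fold change of Arc in APP vehicle against WT vehicle was 0.094.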
